A study of Mus musculus with 4 samples.

Results

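The CD8 and cytotoxic granule genes are 9 genes that were taken by symbol from the deposited expression table of 17921 genes: Cd8a, Cd8b1, Nkg7, Gzmb, Prf1, Klrd1, Klrk1, Fasl and Ctsw. All 9 were found once each, and all 9 passed the filter on low counts that left 12680 genes to test. RNA sequencing measured them in cultured mouse Th17 cells, a helper lineage known for interleukin 17. The starting material was naive CD4+ T cells of each mouse, polarised in culture for 72 h, after which every cell was used. The knockout (KO) group was 2 mice labelled PRAK KO and the wild-type (WT) group was 2 mice labelled WT, with 1 library per mouse, called KO 1, KO 2, WT 1 and WT 2 after the mouse numbers. PRAK is a protein kinase encoded by Mapkapk5. The sources used here give no strain, age, sex or deleted part of the gene, and both groups share the enrichment and the culture.

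CD8 is the coreceptor of T cells that recognise peptides on MHC class I. It is made of an alpha chain from Cd8a and a beta chain from Cd8b1, or of alpha chains alone, and CD4 helper cells keep both genes silent once they are mature. Killer T cells and NK cells store perforin (Prf1) and granzymes such as granzyme B (Gzmb) in secretory granules. Perforin opens the target cell's membrane and the granzymes cut proteins inside it, while the Fas ligand (Fasl) kills through a death receptor. Gzmb and Fasl are also made by activated helper cells. Cd8a alone is also a marker of a class of dendritic cells, which lack Cd8b1.

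The libraries held between 19418012 and 20125124 estimated reads on genes. Mapkapk5 lay at 35.6 and 38.4 CPM (counts scaled to library size with TMM) in WT 1 and WT 2 and at 20.0 and 21.6 in KO 1 and KO 2, lower in both libraries labelled KO (log2 fold change -0.83, adjusted p = 0.0194, edgeR). Without WT 1 that p was 0.0918 and without WT 2 it was 0.169. Of the markers of the labelled cells, Cd4 stood between 516 and 939.5 CPM and Il17a, the signature cytokine gene of Th17 cells, between 237 and 643 CPM. All 8 Th17 markers and all 11 helper T cell markers looked at were above 0 in every library. In such bulk samples a change in the number of cells of a type and a change in RNA per cell cannot be told apart.

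Of the 9 genes, 1 passed the test between KO and WT cultures, and the mice of each genotype also differed from each other. Nkg7 was called higher in KO (adjusted p under 0.05, edgeR quasi-likelihood test, Benjamini-Hochberg adjustment over all genes) and 0 were called lower. At an unadjusted p under 0.05, 4 members were higher and 0 lower. Such counts, here and for the lists below, have no share of all genes at that threshold beside them. DESeq2 called 2 of 9 higher and 0 lower, against 17.8% called of all genes in its fit. With edgeR, 13.4% of all genes tested were called, 5.14% higher and 8.23% lower, so 1 of 9 is near the background. In 4 members, Cd8a, Cd8b1, Nkg7 and Gzmb, both KO values lay above both WT values, as they did in 31.7% of all genes tested. The genotypes did not overlap in either direction in 63.0% of genes. The median log2 fold change of the members was 0.80, against 0.02 over all genes tested, and 8 of 9 were above 0, against 51.8% of all genes. As the members were chosen with earlier results of these data known, these values are a description.

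**Figure D1:**
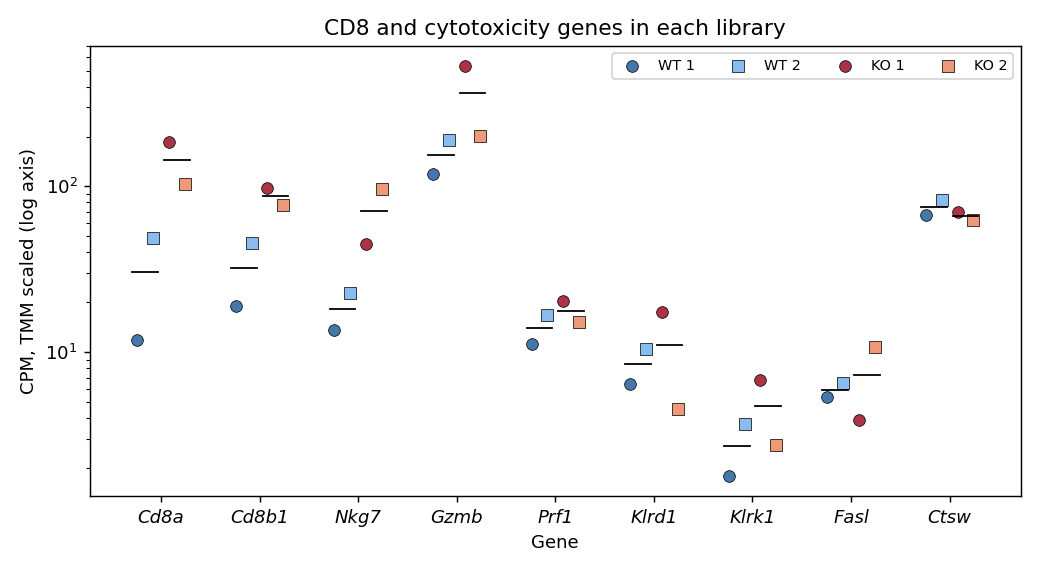
Level of each gene (CPM with TMM scaling, log axis) in the 4 libraries, with a short line at the mean of each genotype (n = 2). Cd8a runs from 11.8 in WT 1 to 185 in KO 1, and the Ctsw values lie between 62.5 and 83.3.

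The promoters of 3 members are shown because the results turn on these genes: Cd8a had the largest ratio of highest to lowest library, Nkg7 was the gene called, and Gzmb was the most abundant member. RefSeq promoter windows (GRCm38.p6, 250 bases before the transcription start to 50 after it) were matched for 6 of the 9, namely Cd8a, Nkg7, Gzmb, Prf1, Klrk1 and Fasl, and not for Cd8b1, Klrd1 and Ctsw. The windows shown are chr6:71373177-71373476 on the plus strand (Cd8a), chr7:43436888-43437187 on the plus strand (Nkg7) and chr14:56262285-56262584 on the minus strand (Gzmb), each 5′ to 3′ along the gene. Capitals mark the letters TGTGGT, the core bound by RUNX factors, and GGTGTGA, a half-site of T-box factors such as T-bet, on either strand, with no overlap between them.

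Cd8a: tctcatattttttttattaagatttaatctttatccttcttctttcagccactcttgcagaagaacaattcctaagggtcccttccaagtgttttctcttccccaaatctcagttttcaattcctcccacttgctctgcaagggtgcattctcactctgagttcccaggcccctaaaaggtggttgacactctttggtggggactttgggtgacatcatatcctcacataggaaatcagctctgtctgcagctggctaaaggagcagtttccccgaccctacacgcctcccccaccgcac
Nkg7: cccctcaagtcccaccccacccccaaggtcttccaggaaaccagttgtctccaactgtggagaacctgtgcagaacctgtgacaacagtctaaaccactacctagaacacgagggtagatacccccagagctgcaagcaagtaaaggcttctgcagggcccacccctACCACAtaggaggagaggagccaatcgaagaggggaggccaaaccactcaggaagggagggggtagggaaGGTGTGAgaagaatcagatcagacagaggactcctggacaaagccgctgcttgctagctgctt
Gzmb: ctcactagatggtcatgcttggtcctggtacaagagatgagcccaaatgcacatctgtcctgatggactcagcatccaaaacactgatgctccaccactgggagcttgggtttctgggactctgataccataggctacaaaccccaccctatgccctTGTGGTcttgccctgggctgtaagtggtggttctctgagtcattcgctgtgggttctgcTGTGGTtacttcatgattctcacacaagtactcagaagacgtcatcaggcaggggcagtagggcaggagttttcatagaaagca

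The RUNX core was in the windows of 4 of the 6 members (Klrk1, Nkg7, Prf1 and Gzmb), and in 16.8% of all 32851 windows. In Gzmb it occurred at 93 and at 34 bases before the start, and in Nkg7 at 83 bases before it, there on the other strand. The T-box half-site was in the Nkg7 window alone of the 6, 13 bases before the start, and in 3.98% of all windows. These are matches of letters. Of the factors, Runx3 fell and Tbx21 rose in KO cells, as given with the other transcription factors. Runx1 (log2 fold change 0.13, adjusted p = 0.559, edgeR), Runx2 (0.40, 0.22) and the T-box gene Eomes (2.81, 0.0536) did not pass. A link between these factors and the matches was not tested.

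The coreceptor genes Cd8a and Cd8b1 had the same order of libraries, KO 1 highest, then KO 2, WT 2 and WT 1. Cd8a (gene ID 12525, chromosome 6, 71373427 to 71379171, GRCm38.p6) measured 11.8 CPM (WT 1), 49.1 (WT 2), 185 (KO 1) and 104 (KO 2). The genotypes did not overlap, and WT 1 stood far below the other 3. The means were 30.5 ± 26.3 CPM in WT and 144 ± 57.6 in KO (SD, n = 2 each), a log2 fold change of 2.25 ± 0.66 (SE) that did not pass (adjusted p = 0.083, edgeR).

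Cd8b1 (gene ID 12526, chromosome 6, 71322788 to 71337492) measured 19.1 CPM (WT 1), 45.3 (WT 2), 97.6 (KO 1) and 77.1 (KO 2). Here too the genotypes did not overlap, with WT 1 lowest. KO exceeded WT by 1.44 ± 0.40 on the log2 scale (SE, adjusted p = 0.0717, edgeR), and DESeq2 called it higher (adjusted p = 0.000702).

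The balance of both chains moved along with their level. On the deposited TPM scale, which corrects for gene length, the ratio of Cd8a to Cd8b1 was 0.278 (WT 1), 0.484 (WT 2), 0.848 (KO 1) and 0.602 (KO 2). Cd8b1 thus exceeded Cd8a in all 4 libraries, and the ratio was higher in both KO libraries. The ratio of Cd8a to Cd4 on that scale was 0.0158 (WT 1), 0.0565 (WT 2), 0.352 (KO 1) and 0.109 (KO 2). The high value of KO 1 combines the highest Cd8a with the lowest Cd4, 516 CPM against 739 to 939.5 in the others.

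Of the genes that flank the CD8 pair, the nearest on either side did not share its order of libraries. Krcc1, 51.1 kb from Cd8b1 between the lower coordinates of both genes, lay at 38.9 CPM (WT 1), 35.7 (WT 2), 39.4 (KO 1) and 47.2 (KO 2) (adjusted p = 0.348, edgeR). Rmnd5a, 15.2 kb from Cd8a by the same measure, lay at 112, 106, 101 and 117 CPM in these libraries (adjusted p = 0.986). Smyd1, farther off at 108.8 kb from Cd8b1 and close to 0, did have the order of the CD8 genes, with 0.103 CPM (WT 1), 0.418 (WT 2), 1.31 (KO 1) and 0.547 (KO 2) (adjusted p = 0.179).

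Among the granule genes, Nkg7, which encodes a membrane protein of cytotoxic granules, rose in KO cells. It measured 13.6 CPM (WT 1), 22.7 (WT 2), 45.0 (KO 1) and 96.7 (KO 2) (gene ID 72310, chromosome 7, 43437138 to 43438246). Both KO libraries were above both WT libraries, and unlike the CD8 genes it was highest in KO 2. KO exceeded WT by 1.96 ± 0.42 on the log2 scale (SE, adjusted p = 0.0402, edgeR), a fold of 3.90. That call was lost without WT 1 (adjusted p = 0.197), without WT 2 (0.11) and without KO 2 (0.106), and the log2 fold change was 1.31 without KO 2. Cldnd2, a gene 3.6 kb away, had the same order of libraries at 0.359 CPM (WT 1), 0.68 (WT 2), 1.06 (KO 1) and 3.58 (KO 2) (adjusted p = 0.109), and Etfb, 6.9 kb away, had an adjusted p of 0.296.

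Gzmb, the gene of granzyme B, measured 118 CPM (WT 1), 190.3 (WT 2), 529.8 (KO 1) and 201 (KO 2) (gene ID 14939, chromosome 14, 56258836 to 56262334). KO 1 was high, while KO 2 lay close to WT 2, so the genotypes were separated by a narrow gap. KO exceeded WT by 1.24 ± 0.48 on the log2 scale (SE, adjusted p = 0.147, edgeR), and by 0.38 without KO 1.

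Prf1, the perforin gene, measured 11.2 CPM (WT 1), 16.7 (WT 2), 20.4 (KO 1) and 15.2 (KO 2) (gene ID 18646, chromosome 10, 61297751 to 61304684). The genotypes overlapped, with KO 2 between the WT libraries (log2 fold change 0.35 ± 0.26, SE, adjusted p = 0.407, edgeR). The TPM ratio of Gzmb to Prf1 was 15.5 (WT 1), 16.7 (WT 2), 38.1 (KO 1) and 19.4 (KO 2). That ratio was alike in 3 libraries and higher in KO 1.

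Ctsw, which encodes cathepsin W, a protease of killer cells, had the smallest ratio of highest to lowest library among the members. It measured 67.6 CPM (WT 1), 83.3 (WT 2), 70.5 (KO 1) and 62.5 (KO 2) (gene ID 13041, chromosome 19, 5465043 to 5468628). It was the only member with a mean lower in KO (log2 fold change -0.18 ± 0.15, SE, adjusted p = 0.454, edgeR). The annotation places the gene Fibp over part of it, and without strand their reads there cannot be told apart. Fibp had an adjusted p of 0.565.

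The lectin receptor genes Klrd1 and Klrk1, which lie 22.2 kb apart in the NK gene complex, were high in KO 1 alone. Klrd1 (CD94, the partner of the NKG2 receptors) measured 6.41 CPM (WT 1), 10.5 (WT 2), 17.4 (KO 1) and 4.52 (KO 2) (gene ID 16643, chromosome 6, 129588092 to 129598775). KO 1 was the highest library and KO 2 the lowest, so the KO values enclosed the WT values. Its log2 fold change of 0.38 (standard error 0.63, adjusted p = 0.716, edgeR) turned to -0.90 without KO 1 (adjusted p = 0.0503) and was 1.04 without KO 2 (adjusted p = 0.0134).

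Klrk1 encodes NKG2D, a receptor for stress ligands. It measured 1.79 CPM (WT 1), 3.66 (WT 2), 6.78 (KO 1) and 2.73 (KO 2), from counts of 35, 70, 140 and 55 (gene ID 27007, chromosome 6, 129610323 to 129623903). KO 2 lay between the WT libraries. KO exceeded WT by 0.80 ± 0.56 on the log2 scale (SE, adjusted p = 0.378, edgeR), 1.40 without WT 2, 1.31 without KO 2 (adjusted p = 0.0145) and close to 0 without KO 1.

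Fasl, the Fas ligand gene, had the opposite pattern in the KO mice. It measured 5.33 CPM (WT 1), 6.54 (WT 2), 3.87 (KO 1) and 10.8 (KO 2) (gene ID 14103, chromosome 1, 161780691 to 161788495). Here KO 1 was the lowest library and KO 2 the highest. The log2 fold change of 0.30 (standard error 0.49, adjusted p = 0.711, edgeR) turned to -0.62 without KO 2 (adjusted p = 0.061) and was 0.86 without KO 1 (adjusted p = 0.00659).

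**Figure D2:**
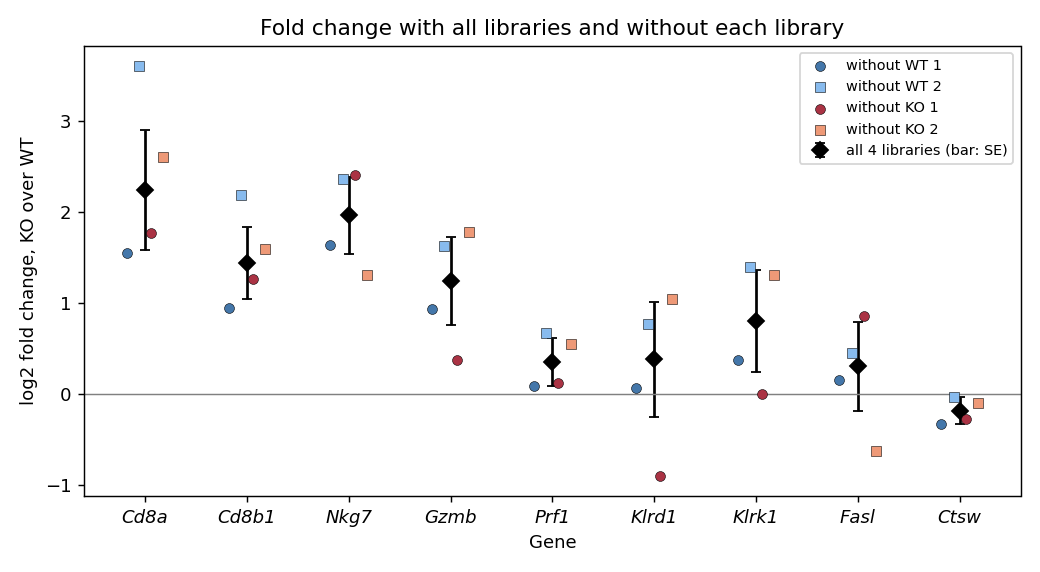
Log2 fold change of KO over WT for each member, with all 4 libraries (diamond, bar 1 SE) and without each library in turn (coloured points). Klrd1 turns to -0.90 without KO 1 and Fasl to -0.62 without KO 2, while Cd8a lies between 1.55 and 3.60.

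In terms of abundance per length, Gzmb led the members in every library, with 155 TPM (WT 1), 243 (WT 2), 760.1 (KO 1) and 269 (KO 2). In WT 1 the order went on with Ctsw, Nkg7, Cd8b1, Klrd1, Prf1, Cd8a, Fasl and Klrk1. In KO 1 it was Cd8b1, Cd8a, Nkg7, Ctsw, Klrd1, Prf1, Klrk1 and Fasl. Cd8a thus moved from below Prf1 in WT 1 (6.98 and 10.04 TPM) to more than it in KO 1 (119 and 19.95 TPM), and in WT 2 and KO 2 it also lay above Prf1. The last places were taken by Klrk1 and Fasl in 3 libraries, at 1.30 to 6.83 TPM for Klrk1 and 4.04 to 10.5 for Fasl over all 4, ranges that overlap. In KO 2 Klrd1 lay below Fasl (9.89 and 10.5 TPM), with only Klrk1 lower. By rank among all genes of the table, Cd8a went from the 50.4 percentile of TPM in WT 1 to 91.9 in KO 1, and Gzmb from 94.6 to 99.1.

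Within the WT genotype, all 9 members were higher in WT 2 than in WT 1, against 51.8% of all genes tested. The ratio of WT 2 to WT 1 was 4.14 for Cd8a (95% interval 3.59 to 4.81, exact binomial, counting error only), and 0.174% of the genes tested had a ratio at least that high. For Cd8b1 it was 2.37 (2.10 to 2.69), and 1.30% of genes reached it. It was 2.04 for Klrk1, 1.66 for Nkg7, 1.63 for Klrd1, 1.61 for Gzmb and 1.5 for Prf1, all with intervals above 1. Fasl and Ctsw both stood at 1.23, and the interval of Fasl (0.937 to 1.61) included 1. The median log2 ratio was 0.71 over the members and 0.007 over all genes tested.

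Within the KO genotype the members split. In 7 of 9 KO 1 was above KO 2, with a ratio of 3.85 for Klrd1 (3.05 to 4.9), 2.64 for Gzmb (2.55 to 2.74), 2.48 for Klrk1, 1.78 for Cd8a and 1.27 for Cd8b1. Nkg7 (0.466) and Fasl (0.359, interval 0.274 to 0.466) were lower in KO 1. Cd4 was also lower in KO 1, at 0.549 times KO 2.

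**Figure D3:**
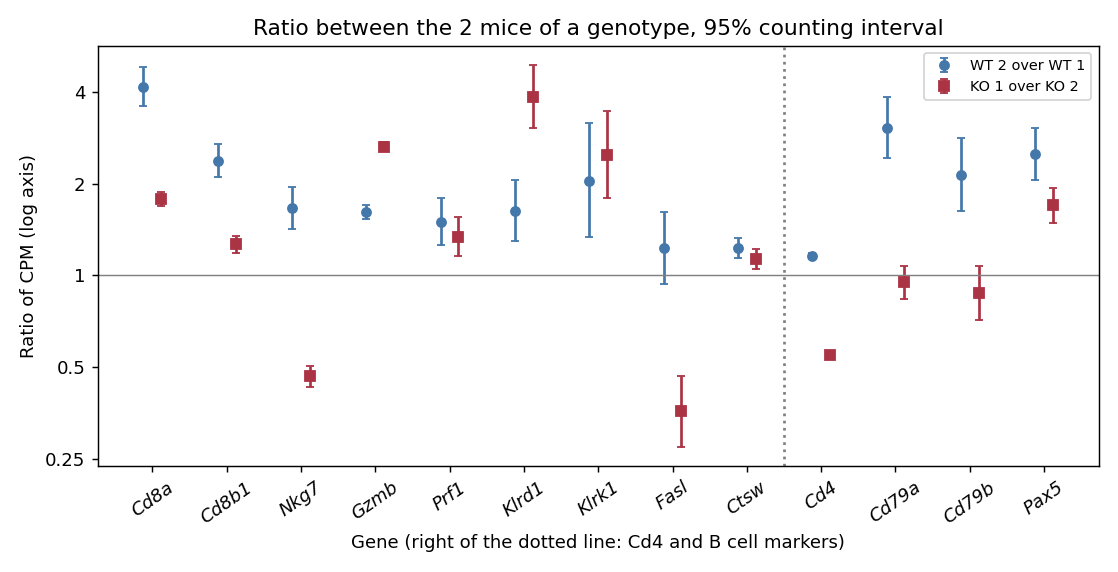
Ratio of CPM between the 2 mice of each genotype (log axis) for the members and, right of the dotted line, Cd4 and 3 B cell markers, with 95% counting intervals. The WT ratios of Cd8a (4.14), Cd8b1 (2.37) and Cd79a (3.05) lie above that of Cd4 (1.16).

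The 2 WT mice therefore weigh on the comparison. Without WT 2 the log2 fold changes of Cd8a and Cd8b1 were 3.60 and 2.19, and without WT 1 they were 1.55 and 0.94. Without KO 1 they were 1.77 and 1.26, and without KO 2 they were 2.60 and 1.60. Of the fits that leave out a library, only the one without WT 2 called Cd8a and Cd8b1. Without WT 1, 0 of 9 members were called by edgeR (3 higher at an unadjusted p under 0.05), against 5.46% of all genes tested. Without WT 2 there were 2 of 9 (5.28% of all genes), without KO 1 Nkg7 and Fasl (36.1% of all genes) and without KO 2 Klrd1 and Klrk1 (46.2% of all genes). DESeq2 called Nkg7 and Cd8b1, 2 of 9, against 17.8% of all genes. The called members thus differed between these fits, and Nkg7 was called in 1 of the 4 that leave out a library.

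Around the members, other genes of the killer cell programme moved in both directions. Of 71 genes tested in 5 lists, 13 rose and 4 fell, or 23.9%, beside 13.4% of all genes. As the lists were chosen with earlier results of these data known, these shares are a description. Fewer genes of these lists were called without a WT library and more without a KO library, as over all genes.

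Of the other granzymes, 4 of 8 found were tested, 1 rose and 0 fell (median log2 fold change 0.94; 2 higher and 0 lower at an unadjusted p under 0.05, and with DESeq2 2 and 0). Gzmc, the neighbour of Gzmb 27.4 kb away, measured 0.82 CPM (WT 1), 1.83 (WT 2), 11.3 (KO 1) and 6.86 (KO 2). Like Gzmb it was highest in KO 1, and it rose by 2.77 on the log2 scale (adjusted p = 0.0232, edgeR). The call held without each library in turn (highest adjusted p 0.0231), while the change was 3.45 at its largest, without WT 2. Gzma, the most abundant of these other granzymes, stood at 16.3, 40.7, 39.2 and 26.9 CPM in WT 1, WT 2, KO 1 and KO 2 (adjusted p = 0.772), so its genotypes overlapped. Gzmd, Gzme and Gzmf were at 0 in both WT libraries and at or under 1.99 CPM in KO, highest in KO 2. Gzmg was at 0.105 CPM in WT 2 and at 0 in the other libraries. Since granzymes of this cluster are near-identical, their division of reads is uncertain.

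Granule content and release genes mostly did not pass: of 19 tested, 3 rose and 1 fell, with a median of 0.12. Serpinb9, the inhibitor that protects killer cells from granzyme B, rose by 0.98 (adjusted p = 0.0332, edgeR), from 10.7 and 11.03 CPM in WT to 24.3 and 18.4 in KO. Lyst, which controls the size of lysosomes and granules, rose by 0.63 (0.0256), and the lysosome membrane gene Lamp1 by 0.51 (0.0366). Stxbp2, needed for granule fusion, had a log2 fold change of -0.49 (0.0465), and with scaling by library size alone it was not called (0.0724). All 4 calls were lost without WT 1 or without WT 2 (adjusted p from 0.148 to 0.502). Srgn, the granule proteoglycan gene and the most abundant of the list, stood between 754 and 1014 CPM (adjusted p = 0.489).

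In the list of death ligands and receptors 3 of 8 rose and 0 fell (median 0.37). Tnf rose, with WT at 66.9 ± 4.72 CPM and KO at 163 ± 19.98 (log2 fold change 1.28, adjusted p = 0.00738, edgeR). Tnfrsf10b, the receptor of TRAIL, rose by 1.18 (0.018), and Tnfsf10, the TRAIL gene, rose by 1.27 (0.0473). The call of Tnfsf10 was lost without WT 1 (0.161) and without WT 2 (0.0946). Lta, the most abundant gene of the list, ranged from 287 to 559.5 CPM (adjusted p = 0.636). Fas, the receptor of the Fas ligand, had a log2 fold change of 0.63 (adjusted p = 0.327).

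Other NK receptors and adaptors held 4 higher and 1 lower gene among 18 tested (median 0.28). Slamf7, a receptor of activated lymphocytes, fell, with WT at 158 ± 18.9 CPM and KO at 33.6 ± 6.70 (log2 fold change -2.23, adjusted p = 0.00415, edgeR). The most abundant gene, Il2rb, had a log2 fold change of -0.55 (0.0756). Cd160 rose by 2.18 (0.0162), from 1.13 and 1.2 CPM in WT to 4.50 and 6.11 in KO, and the adhesion receptor gene Crtam rose by 1.04 (0.0202). Cd160 missed the threshold without WT 1 (0.0636) and without WT 2 (0.0536), and Crtam without WT 1 (0.137). The Fc receptor genes Fcgr3 (2.49, adjusted p = 0.0262) and Fcer1g (2.39) also rose, and both are expressed by macrophages, whose markers rose as well. Klrc1, the NKG2A gene whose product joins CD94, stood at 19.4, 19.1, 27.3 and 17 CPM in WT 1, WT 2, KO 1 and KO 2 (adjusted p = 0.62), and RSEM must divide its reads from those of Klrc2 and Klrc3.

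Transcription factors of the CD8, CD4 and killer programmes split, with 2 of 22 higher and 2 lower (median 0.05). Tbx21, which encodes T-bet, rose, with WT at 16.6 ± 1.91 CPM and KO at 40.4 ± 12.4 (log2 fold change 1.28, adjusted p = 0.0292, and 0.0584 without WT 1), and Tox rose by 1.35 (0.0439). Runx3, the factor that silences Cd4 and supports CD8 cells, fell, with WT at 489.6 ± 22.9 CPM and KO at 260.2 ± 32.4 (log2 fold change -0.91, adjusted p = 0.0195). Nfil3 fell by 1.83 on the log2 scale (0.00279). The most abundant factors, Irf4 (-0.49, adjusted p = 0.0863) and Satb1 (-0.32, 0.209), did not pass. Eomes, a factor of CD8 and NK cells, stood at 0.974 and 0.523 CPM in WT and at 2.52 and 8.05 in KO (adjusted p = 0.0536). Zbtb7b, the factor that fixes the CD4 fate, stood at 171 and 166 CPM in WT and at 153 and 206 in KO (adjusted p = 0.746). Runx3 and Tox missed the threshold without WT 1 (0.0723 and 0.0919) and without WT 2 (0.116 and 0.0809).

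**Figure D4:**
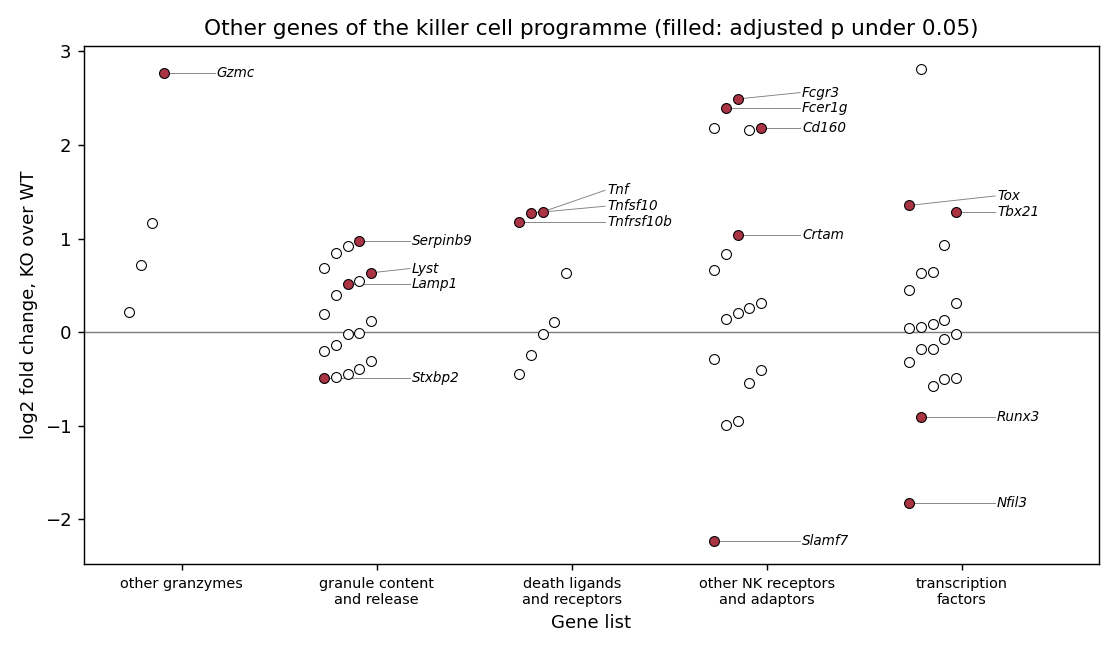
Log2 fold change of KO over WT (vertical axis) for each tested gene of 5 lists, with filled and named points for adjusted p under 0.05. The lists hold genes above and below 0, from Gzmc at 2.77 to Slamf7 at -2.23.

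Among markers of cells other than T cells, the B cell markers had a summed level in the order of the CD8 genes. Of 5 B cell markers found, 1 rose (Ms4a1, log2 fold change 3.43, adjusted p = 0.0102, edgeR) and 0 fell, with 2 higher at an unadjusted p under 0.05 and 2 with DESeq2. Their summed level was 26.2 CPM (WT 1), 69.5 (WT 2), 103 (KO 1) and 86.9 (KO 2), highest in KO 1 and lowest in WT 1 as were Cd8a and Cd8b1. Without WT 2 more of the 5 were called higher, though over all genes fewer were called. Without each other library the number called was that with all 4 libraries. The WT 2 to WT 1 ratio was 3.05 for Cd79a, 2.50 for Pax5 and 2.14 for Cd79b. No B cell marker found was at 0 in any library. The part of such cells in the CD8 values was not tested.

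Macrophage markers rose too: 4 of 7 tested were higher and 0 lower, and all 8 found summed to 14.0 and 23.5 CPM in WT and 45.1 and 153 in KO. Their sum was highest in KO 2, as were Nkg7 and Fasl, while Cd8a and Gzmb were highest in KO 1. Fewer of the 7 were called without WT 1 or without WT 2, as over all genes. Csf1r, the receptor gene of the macrophage growth factor, rose by 3.67 on the log2 scale (adjusted p = 0.0278, edgeR) and was called without each library in turn. Adgre1 (3.19, adjusted p = 0.0394) and Itgam (3.11, 0.0453) rose, and both calls were lost without WT 1 and without WT 2. Adgre1 rested on counts of 1 (WT 1), 2 (WT 2), 12 (KO 1) and 19 (KO 2). DESeq2 did not call Adgre1 (adjusted p = 0.101). Lyz2 stood at 1.54 and 3.08 CPM in WT and at 12.7 and 64.3 in KO (adjusted p = 0.0387, lost without WT 1 at 0.686 and without WT 2 at 0.712). Fcgr1 was at 0 in WT 2 and KO 1. Their part in the values of Nkg7, Fcgr3 and Fcer1g was not tested.

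Of 6 defining NK cell markers, 3 were too low to test. Ncr1 was at 0 in both WT libraries and at 0.048 and 0.050 CPM in KO, and Klra8 was at 0 in 3 libraries and at 0.097 in KO 1. Klrb1c did not exceed 0.290 CPM. The other 3 passed the filter but were low in most libraries. Eomes lay at 0.974 and 0.523 CPM in WT and at 2.52 and 8.05 in KO. Klre1 lay at 2.51 and 2.82 in WT and at 2.37 and 0.298 in KO. Itga2 lay between 0.532 and 0.895, from counts of 11 to 18. The 6 markers summed to 4.05 and 4.08 CPM in WT and to 5.86 and 9.34 in KO, and of the 3 tested 0 were called by edgeR (1 higher at an unadjusted p under 0.05, and Eomes with DESeq2).

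Of the markers of CD8a+ dendritic cells, which could carry Cd8a without Cd8b1, 2 of 8 tested rose and 1 fell. The 10 summed to 274 and 303 CPM in WT and to 320.3 and 329.6 in KO, of which Irf8 gave 230.5 to 264. Itgae rose by 1.60 (adjusted p = 0.0225, edgeR) and Itgax by 2.55 (0.0146), while Naaa had a log2 fold change of -0.94 (0.0473), lost without WT 1 (0.2), without WT 2 (0.262) and with scaling by library size alone (0.0587). Clec9a was at 0 in WT 1, WT 2 and KO 2 and at 0.242 CPM in KO 1, and Xcr1 stood between 0.993 and 2.23. Plasmacytoid dendritic cell markers held 2 higher genes (Bst2 and Ly6d) of 4 tested, with sums of 85.4 and 89.1 CPM in WT and 136 and 167 in KO. The call of Ly6d was lost without WT 1 (log2 fold change 1.61). Of these sums Bst2 gave 23.3 and 21.1 CPM in WT and 59.1 and 76.55 in KO. Runx2 gave 44.9 and 46.1 in WT and 49.3 and 71.1 in KO. Tcf4 (log2 fold change -0.07, adjusted p = 0.851, edgeR) and Ccr9 (0.249 to 0.359 CPM) did not rise. Siglech was at 0 in KO 1 and at most 0.154 CPM elsewhere.

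For gamma delta T cells 3 of 8 markers were found, and 0 were called by edgeR or DESeq2 (1 lower at an unadjusted p under 0.05). They summed to 6.51 and 15.7 CPM in WT and to 15.4 and 16.4 in KO. Of these sums Blk gave 4.51 and 12.4 in WT and 14.4 and 15.4 in KO. Sox13 went the other way, with 1.90 and 2.35 CPM in WT and 0.387 and 0.845 in KO (adjusted p = 0.0697, edgeR). Cd163l1 lay at 0.103 and 0.993 CPM in WT and at 0.581 and 0.199 in KO. Basophil and mast cell markers summed to 51.3 and 59.1 CPM in WT and to 21.9 and 48.7 in KO, of which Kit gave 50.9 and 58.1 in WT and 20.1 and 38.0 in KO. Of 2 tested, 0 were called by edgeR (1 lower at an unadjusted p under 0.05), and DESeq2 called 1 higher and 1 lower of 5. Mcpt8, Cpa3 and Prss34 were low and highest in KO 2, at 3.23, 1.79 and 4.87 CPM, against at most 0.436 in the other libraries. The rest of the list did not share this pattern clearly. Reads of Cma1 came from KO 1 alone (0.242 CPM). Fcer1a and Mcpt4 were at 0 in both WT libraries and had equal counts in the KO mice (2 each and 1 each). For Ms4a2 the KO mice were close, with 0.581 CPM for KO 1 against 0.696 for KO 2. Helper T cell markers held 2 higher (Cd5 and Cd6) and 0 lower genes of 11 (3 and 1 at an unadjusted p under 0.05, and with DESeq2 3 and 1), and summed to between 3824 and 4579 CPM. Cd5 missed the threshold without WT 1 (0.0996) or WT 2 (0.19), as did Cd6 (0.327 and 0.382). The calls of this list changed with the library left out. Th17 markers held 1 higher (Ccr6) and 1 lower (Il23r) of 8, with 1 and 3 at an unadjusted p under 0.05 and 1 and 2 with DESeq2, and summed to between 1337 in KO 2 and 3488 in WT 1. In 5 of the 8 both KO values were below both WT values, and in 1 both were above. Over all genes tested the genotypes did not overlap in 63.0%, with both KO values above both WT values in 31.7%. Il23r missed the threshold without WT 1 (0.0763) or WT 2 (0.0721). Here too the calls of the list changed with the library left out.

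**Figure D5:**
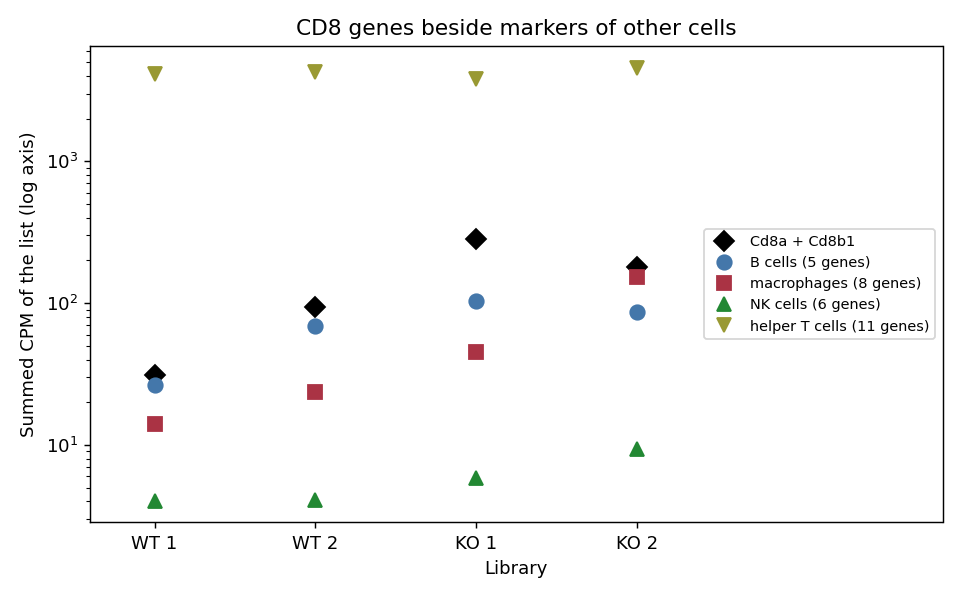
Summed CPM (log axis) of Cd8a and Cd8b1 and of 4 marker lists in each library. The B cell markers go from 26.2 in WT 1 to 103 in KO 1, while the helper T cell markers stay between 3824 and 4579.

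Likeness of pattern was measured as the distance between log2 CPM profiles centred over the 4 libraries, for the 10065 genes whose mean reached 5 CPM. Of these, genes without a conventional name (such as Gm, Rik, LOC or number names) were left out of the ranking. Among the rest, nearest to Cd8a were Spi1 (distance 0.697), Gzmc (0.729) and Cybb (0.907). Nearest to Cd8b1 were Ciita (0.133), Cd74 (0.285) and Bcl11a (0.299). Cd74 measured 53.1 CPM (WT 1), 119 (WT 2), 293 (KO 1) and 263 (KO 2), and its WT libraries were apart from each other like those of Cd8b1. For Nkg7 they were Dglucy (0.220), Tnfrsf13c (0.303) and Cd80 (0.322), all highest in KO 2. For Gzmb they were Sema6d (0.420), Coro2a (0.442) and Apoe (0.495), all highest in KO 1, and for Prf1 Fgl2 (0.094), Arl6 (0.146) and Otulin (0.177). With 4 libraries many profiles lie close together, so these names are a description.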

How the data were processed

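The deposited table gives expected counts, FPKM and TPM per gene for 4 libraries of 19418012 to 20125124 estimated reads. The expected counts, estimates by the authors, need not be whole. The deposited TPM correct for gene length and sum alike in every library, and the FPKM deposited by the authors were not used. Per the submitters' processing notes, the tools were HISAT2 2.0.4, RSEM 1.2.12 and Bowtie2 2.2.5 on GRCm38.p6, while strand and annotation are not stated there. Counts were rounded, filtered with filterByExpr (minimum count 10, total 15), scaled with TMM and tested by quasi-likelihood in edgeR 4.0.16 under R 4.3.3, with genotype as the single term, over all 12680 genes. An adjusted p under 0.05 is called. SE is the size of the log2 fold change over the square root of F. Alternatives were DESeq2 1.42.0, other filters, library-size scaling, a replicate block and leaving out each library, where the lone library is assumed to vary like the other genotype. The fit was tested on simulated data.

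The members and lists were chosen with earlier results of these data known. The naming rule took all members, Mapkapk5, up to 4 called genes per list by p, and its 2 most abundant genes. It also took, for 5 members, the 3 nearest profiles among genes with a conventional name (0.1 CPM added before logs). Other list genes named (Fcer1g, Eomes, Fas, Klrc1, Zbtb7b, single markers of other cells) and flanking genes were chosen after their values were seen. The lists were other granzymes, granule content and release, death ligands and receptors, NK receptors, transcription factors, and markers of Th17, helper T, NK, gamma delta T, CD8a+ and plasmacytoid dendritic cells, macrophages, B cells, and basophils and mast cells. Of the most abundant marker genes that the rule names, some are not reported here.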

Additional observations from a re-analysis of the deposited data

How the results depend on the processing

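Over all genes, 1695 were called with all 4 libraries, between 693 and 5999 without 1 library, and 2935 with the mouse number as a replicate block. The other alternatives gave counts within 1.5 times of the main one. Scaling by library size alone shifted the all-gene median (log2) from 0.02 to 0.12 and turned the calls from 652 higher and 1043 lower to 918 and 864. Among the members, 1 was called with all 4 libraries, between 0 and 2 without 1 library and 2 with DESeq2. The block changed no member's call, and same-numbered mice deviated together only weakly (r = 0.175 across 12680 genes), with 2 pairs that share a number only. Of 81 alternative values of single members 70 kept direction and side of the threshold, 3 lost the call, 6 gained it (Klrd1 at 1.04 without KO 2 and Fasl at 0.86 without KO 1 among them) and 2 reversed (Klrd1 at -0.90 without KO 1, Fasl at -0.62 without KO 2). The cause of these changes was not tested, beyond the fewer samples in the fits that leave 1 out. Of 31 other called genes that the naming rule took, 12 were called in all 4 fits without a library. Counts under about 100 reads, as for Klrk1, widen the counting intervals, and 2 mice per genotype limit every comparison.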
